A study of Arabidopsis thaliana with 12 samples.

Results

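AT4G18180, GH9B12 and AT1G11730, 3 genes for enzymes of cell wall polysaccharides and glycans, were followed in Arabidopsis thaliana given either water or Murashige and Skoog (MS) medium with sucrose. AT4G18180 is a pectin lyase-like gene, GH9B12 (locus AT2G44570) belongs to glycosyl hydrolase family 9, and AT1G11730 belongs to a galactosyltransferase family. Each was read from the single probe that the platform annotation gives to that gene alone, and they are 3 of the 691 genes with such a probe among the 3439 probes of the array. The genes were chosen by the measured difference between the groups, AT4G18180 for its large rise, GH9B12 and AT1G11730 for large falls. Their differences are therefore given as a description, without a test.

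The plant cell wall is a network of cellulose, hemicelluloses and pectin that is built and cut by large enzyme families. Pectin lyase-like proteins share a helical fold found in polygalacturonases and pectate lyases, which cut pectin. Glycosyl hydrolases of family 9 are endoglucanases that act on cellulose and related glucans, and those of class B lack the membrane anchor of class A members such as KORRIGAN. Galactosyltransferases add galactose to glycans, among them the sugar chains of arabinogalactan proteins, in the Golgi apparatus.

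The study profiled total RNA of wild-type plants of ecotype Wassilevskija in 12 samples, of which 6 are labelled water and 6 had MS medium containing 60 mM sucrose for 6 h. MS medium supplies the mineral salts used in plant culture, so the groups differ by at least these salts and the sugar, and the time in water is not stated. The labels do not state the plant organ, the age or the array type. They also do not say whether a group's samples are separate plants, so a p-value covers only the spread among these samples, possibly a technical one. The intensities were taken as linear, in arbitrary units. Array medians were 0.171 to 0.188 in water and 0.309 to 0.339 after MS with sucrose, and 13.6% of all values are exactly 0. On every array the highest value was 100, at 2 to 8 probes, and what this common ceiling stands for is not stated. Of 15 genes listed as markers of green tissue 3 had a probe of their own, while none of 7 root and 10 pollen markers had one. The summed deposited intensity of the 3 was 52.0 to 63.3 in water and 55.2 to 77.4 after MS with sucrose. This sum was not scaled for the higher array medians after MS with sucrose, so it does not compare amounts of green tissue.

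AT4G18180, the pectin lyase-like gene, was dim in water and bright after MS with sucrose. In water its intensity ran from 0.0822 to 0.133 with a median of 0.109, and in MS with sucrose it ran from 1.003 to 1.51 with a median of 1.24. The groups were far apart: the lowest sample after MS with sucrose was 7.51-fold above the highest water sample. The mean of the water samples was 0.110 ± 0.0199 (SD, n = 6). That of the MS with sucrose samples, 1.24 ± 0.171 (SD, n = 6), was 11.3-fold higher. After log2 with an offset of 0.0718 and quantile normalization, which gives all arrays the same distribution, the difference was 2.40 (SE 0.12), or 5.27-fold. The water intensity lies close to the offset, so the size of both folds rests on a dim group. A larger offset of 0.143, the 25th percentile of values above 0, gave a difference of 2.07 (SE 0.10). In these bulk samples, more cells of a type that uses the gene and more RNA per cell cannot be told apart.

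On its array, AT4G18180 was brighter than 27.3% to 39.3% of the 3439 probes in water and than 85.1% to 91.3% of them after MS with sucrose. This position needs no scale or offset, and it depends on the probe's own brightness, not on transcript number. Among the 692 probes of 1 gene its difference was the largest of all, with AT1G76450 next at 2.25, and among all 3439 probes it ranked 6. These ranks chose the gene and are given for that reason only.

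GH9B12 was nearly level over the water samples and scattered after MS with sucrose. Its intensity in water ran from 0.260 to 0.299 with a median of 0.271. After MS with sucrose its lowest value was 0, its median 0.0733 and its highest 0.232, and samples 4 and 6 were listed at 0. All 6 samples after MS with sucrose lay below the lowest water sample, although sample 1, at 0.232, came close to the water range. Mean intensity went from 0.274 ± 0.0139 (SD, n = 6) to 0.0923 ± 0.0943 (SD, n = 6), and the coefficient of variation was 102% after MS with sucrose against 5.08% in water. The normalized log2 difference was -1.78 (SE 0.30), in which the offset sets the value of the samples listed at 0, so no fold is given. The difference was -1.32 (SE 0.19) with the offset at the 25th percentile of values above 0. On the deposited scale, with no scaling between arrays added here, it was -1.29 (SE 0.34). With zeros treated as missing, a setting that also drops the offset, it was -1.90 (SE 0.29). What the exact 0 stands for in these files is not stated.

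AT1G11730, the galactosyltransferase family gene, was lower after MS with sucrose by less, and its groups touched. Its intensity ran from 0.433 to 0.536 in water with a median of 0.499, and from 0.137 to 0.446 with a median of 0.275 after MS with sucrose. In deposited intensity sample 5 after MS with sucrose, at 0.446, was above water sample 2, at 0.433, and the other 5 samples were below all of the water samples. After normalization the groups did not overlap. Mean intensity went from 0.489 ± 0.0376 (SD, n = 6) to 0.281 ± 0.113 (SD, n = 6), so that water was 1.74-fold brighter. The normalized log2 difference was -1.34 (SE 0.18), or 2.54-fold lower. On the deposited scale, with the offset but no scaling between arrays added here, the difference was -0.73 (SE 0.19). The median difference of all probes was 0.38 on that scale and 0.00 after quantile normalization.

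**Figure D1:**
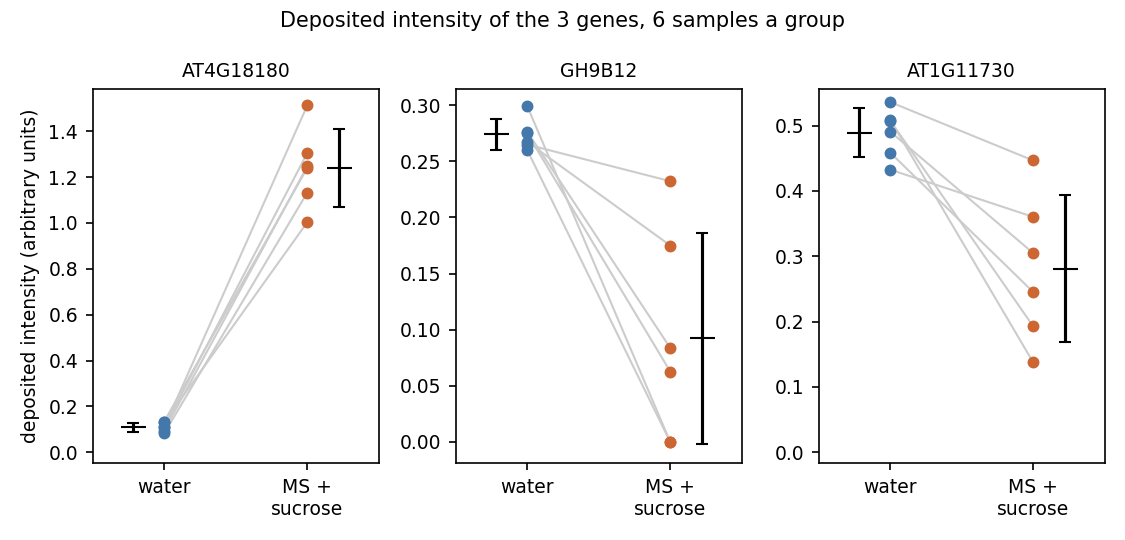
Deposited intensity (arbitrary units, linear axis from 0) of AT4G18180, GH9B12 and AT1G11730 in the 6 water samples (blue) and the 6 samples after MS with sucrose (orange); grey lines join samples of the same number, and black bars beside the points are the mean ± SD. The 6 orange points of AT4G18180 sit between 1.003 and 1.51, above all water points, those of GH9B12 spread from 0 to 0.232, and the highest of AT1G11730 (0.446) overlaps the water points.

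In all, AT4G18180 was higher with no overlap of deposited intensities, which 29.5% of all probes also showed, and GH9B12 was lower with no overlap, which 4.36% of all probes showed. After normalization all 3 genes had no overlap, against 10.3% of all probes in the higher and 12.6% in the lower direction. The choice of the genes used this contrast, so nothing is read from these counts. On their arrays GH9B12 went from a median of 65.6% of probes dimmer in water to 20.03% after MS with sucrose, and AT1G11730 from 79.9% to 43.4%.

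**Figure D2:**
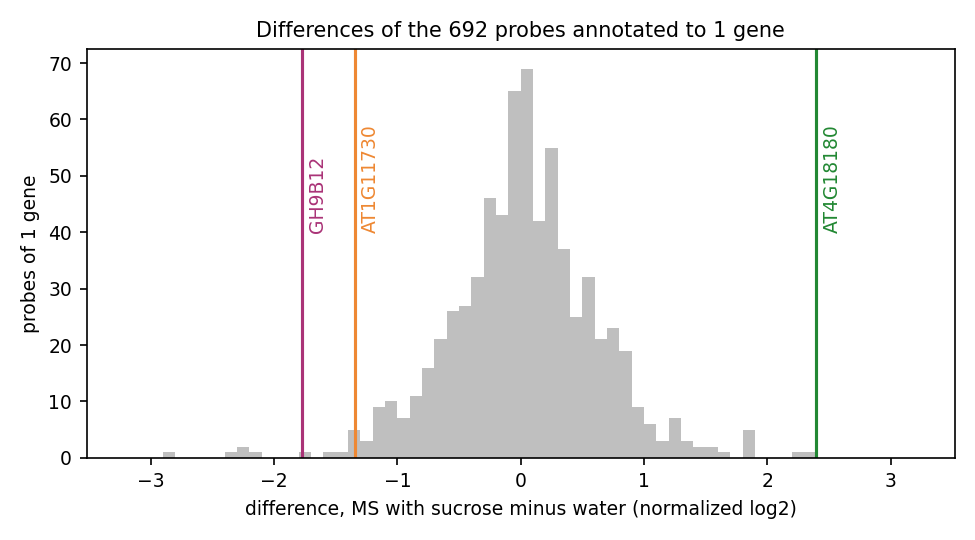
Histogram of the normalized log2 difference, MS with sucrose minus water, over the 692 probes annotated to 1 gene (x axis in log2 units, bins of 0.1; y axis, number of probes), with vertical lines at the 3 genes. The lines stand at 2.40, -1.78 and -1.34, in the tails from which the genes were picked.

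The sample numbers 1 to 6 run through both groups, and samples of the same number tended to deviate together across probes. Each gene was therefore also read within same-numbered samples, although the labels do not state a pairing. AT4G18180 was higher in 6 of 6 pairs, by 1.86 to 2.65 on the normalized log2 scale. Its smallest differences were in pairs 6 (1.86) and 5 (2.17), the pairs with the highest water intensities, 0.130 and 0.133. Pair 6 also had the lowest intensity after MS with sucrose, 1.003. GH9B12 was lower in 6 of 6 pairs, by between -0.78 in pair 1 and -2.64 in pair 6. In deposited intensity pair 1 of GH9B12 held 0.265 in water and 0.232 after MS with sucrose, the nearest approach of the 6. AT1G11730 was lower in 6 of 6 pairs, by between -0.83 in pair 2 and -2.12 in pair 3.

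The 2 genes that were lower did not rank the pairs alike. Pairs 1 and 3 had the smallest differences of GH9B12, at -0.78 and -1.18, and the largest of AT1G11730, at -1.67 and -2.12. The SD of the 6 pair differences was 0.32 for AT4G18180, 0.75 for GH9B12 and 0.50 for AT1G11730.

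**Figure D3:**
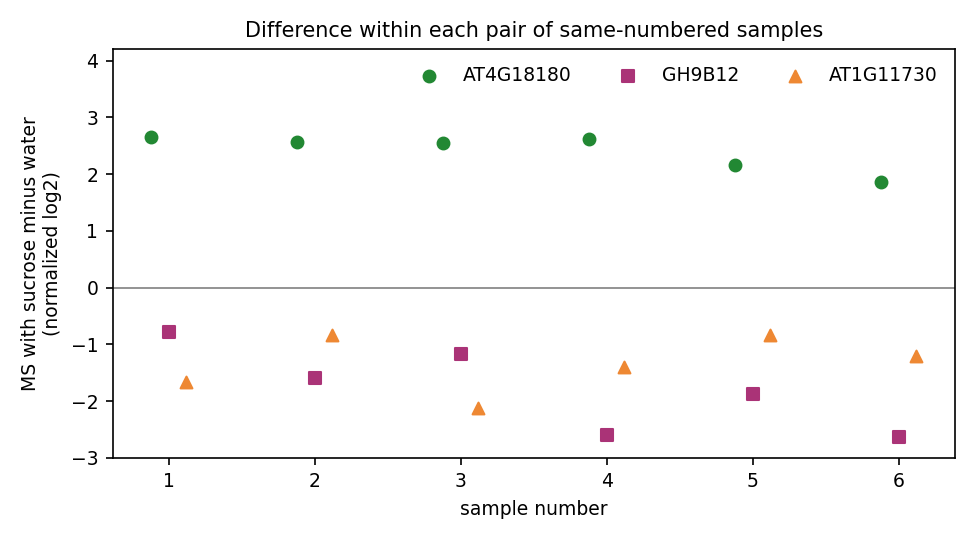
Normalized log2 difference, MS with sucrose minus water, within each pair of same-numbered samples for AT4G18180 (green circles), GH9B12 (purple squares) and AT1G11730 (orange triangles). The x axis is the sample number, and the labels do not say what the order of the numbers means. All green points lie between 1.86 and 2.65; GH9B12 is nearest to 0 in pair 1 (-0.78) and AT1G11730 in pair 2 (-0.83).

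Few other genes of the same families had a probe of their own. Probes annotated to several genes also matched the lists and were not read. They numbered 4 for pectin enzymes, 11 for cellulose and family 9, and 8 for N-glycan and other glycan enzymes. There was also 1 for xyloglucan, xylan and mannan enzymes and 1 for expansins, extensins and other wall proteins. Lists of cell wall and glycan enzymes, written from gene loci, symbols and synonyms, matched 8 genes with a probe of their own: the 3 genes above and 5 others. Of these others 3 belong to glycosyl hydrolase family 9 (GH9B8, GH9B11 and GH9B16), CSLA01 is of the cellulose synthase-like A family, whose members make mannan backbones, and AT2G26100 is of the same galactosyltransferase family as AT1G11730. No other gene on the list of pectin enzymes had a probe of its own, and the lists of xyloglucan and xylan enzymes, expansins and extensins, and nucleotide sugar enzymes had none. The list of N-glycan and other glycan enzymes matched only the family 9 genes already named. By limma's test with Benjamini-Hochberg adjustment over all 3439 probes, 0 of the 5 were higher and 2 were lower at an adjusted p of at most 0.05, where 18.1% of all probes were higher and 19.3% lower. At an unadjusted p under 0.05 the counts were also 0 and 2. On the deposited scale 3 of the 5 were higher and 0 lower, where 44.2% of all probes were higher and 6.89% lower. The median difference of the 5 after quantile normalization was 0.21, against 0.00 over all probes.

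GH9B11 is the neighbour of GH9B12 on chromosome 2, where the gene table lists GH9B9, GH9B10, GH9B11 and GH9B12 next to each other. Its intensity was 0.134 to 0.204 in water with a median of 0.162, and in MS with sucrose it was 0.154 to 0.252, median 0.196. The groups overlapped, and no sample after MS with sucrose was listed at 0, unlike GH9B12. GH9B11 fell by 0.43 on the normalized log2 scale (SE 0.11, adjusted p = 0.00958 by limma) and was lower in 6 of 6 pairs, with pair differences of -0.73 to -0.19. Its direction depended on the scaling: on the deposited scale it was at 0.20 (adjusted p = 0.155 by limma), with a higher mean intensity after MS with sucrose, 0.198 ± 0.0371 (SD, n = 6) against 0.162 ± 0.0244 (SD, n = 6). With adjacent sample numbers averaged GH9B11 did not pass (adjusted p = 0.078 by limma), and over the 9 alternatives its adjusted p ran from 0.00611 to 0.155. The difference between GH9B12 and GH9B11 was not tested, since GH9B12 was chosen for its fall, and whether their probes tell the tandem copies apart was not tested either.

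GH9B16 and GH9B8, further family members, were not called after quantile normalization. GH9B16 ran from 0.177 to 0.221 in water with a median of 0.203, and from 0.349 to 0.570 with a median of 0.446 after MS with sucrose. Its deposited intensities did not overlap, but the normalized difference was 0.21 (SE 0.11, adjusted p = 0.152 by limma), and it was higher in 4 of 6 pairs. On the deposited scale GH9B16 was at 0.89 (adjusted p = 1.88e-05 by limma), and without sample 5 of MS with sucrose its normalized difference passed at 0.27 (adjusted p = 0.0401 by limma). Over the alternatives the adjusted p of GH9B16 ran from 1.88e-05 to 0.212. GH9B8 was near 0 in both groups, with a median of 0.0187 and a highest value of 0.0423 in water, and a median of 0.0839 and a highest value of 0.101 after MS with sucrose. Values of 0 were listed for GH9B8 in water sample 6 and in sample 4 after MS with sucrose. Its difference was 0.37 (SE 0.19, adjusted p = 0.151 by limma), at -0.06 under median centring. GH9B8 passed on the deposited scale at 0.61 (adjusted p = 0.0271 by limma). It also passed with zeros as missing and no offset, at 1.57 (adjusted p = 0.0205 by limma). Without sample 4 of MS with sucrose GH9B8 passed at 0.52 (adjusted p = 0.00641 by limma). In the other alternatives that keep all samples GH9B8 did not pass, with adjusted p of 0.127 to 0.825 by limma.

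CSLA01 had intensities of 0.0661 to 0.149 in water with a median of 0.111, and of 0 to 0.162 with a median of 0.0991 after MS with sucrose. The groups overlapped, and sample 6 after MS with sucrose was the one listed at 0. In deposited intensity pairs 3, 4 and 5 were higher after MS with sucrose, and pairs 1, 2 and 6 were lower. On the normalized log2 scale CSLA01 was lower in 6 of 6 pairs, at -1.90 in pair 6 and -0.81 to -0.25 in the others. It fell by 0.67 on that scale (SE 0.22, adjusted p = 0.0328 by limma). This call was lost with the sample number as a replicate block (adjusted p = 0.0716 by limma), on the deposited scale (-0.24, adjusted p = 0.475) and with zeros as missing (adjusted p = 0.0612). It was also lost without any 1 of water samples 2 to 6 or without sample 1 of MS with sucrose, with adjusted p of 0.0511 to 0.0694 by limma. Without sample 6 of MS with sucrose, the one at 0, the difference was smaller in size, at -0.47 (adjusted p = 0.0214 by limma). Over the alternatives that keep all samples the adjusted p of CSLA01 ran from 0.00845 to 0.475.

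AT2G26100, the galactosyltransferase family gene beside AT1G11730, did not pass. It ran from 0.00755 to 0.173 in water with a median of 0.0822, and from 0.0770 to 0.334 with a median of 0.195 after MS with sucrose. Its groups overlapped, its normalized difference was 0.36 (SE 0.30, adjusted p = 0.397 by limma), and it was higher in 5 of 6 pairs. On the deposited scale it passed at 0.82 (adjusted p = 0.0412 by limma), and over the alternatives its adjusted p ran from 0.0412 to 0.671.

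**Figure D4:**
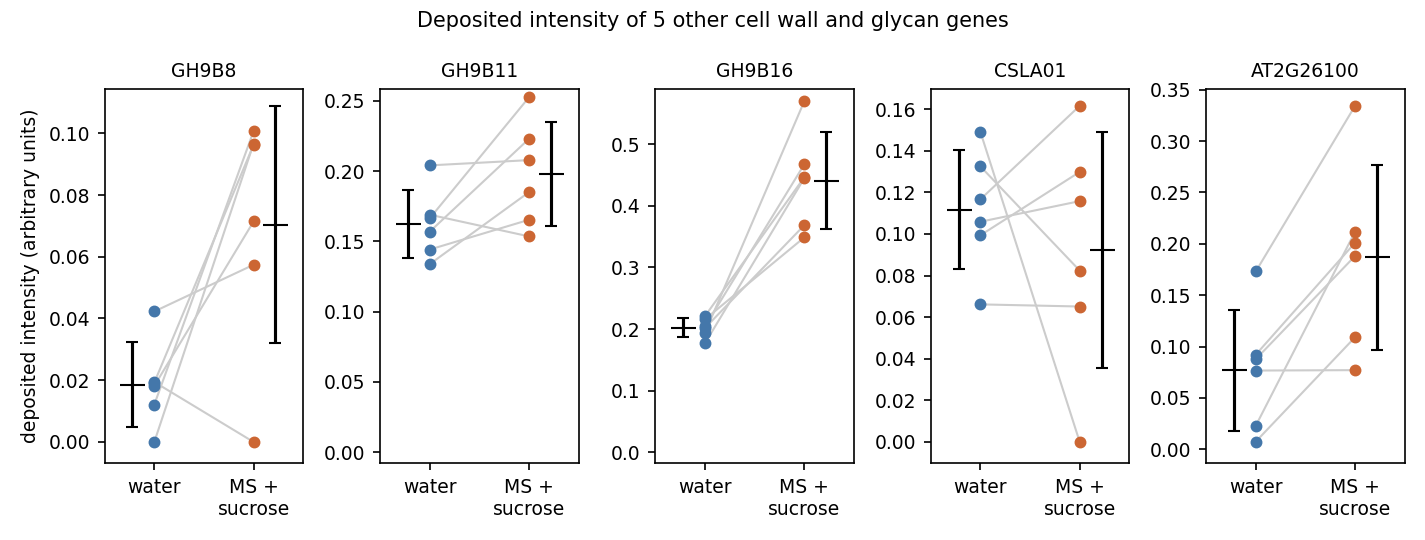
Deposited intensity (arbitrary units, linear axis from 0) of the 5 other cell wall and glycan genes with a probe of their own, drawn as for the 3 genes: blue water, orange MS with sucrose, grey lines for same-numbered samples, black bars for the mean ± SD of 6 samples. The groups of GH9B16 do not overlap in deposited intensity (highest water value 0.221, lowest after MS with sucrose 0.349), and those of the other 4 do.

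The direction of AT4G18180, GH9B12 and AT1G11730 was the same under quantile normalization, cyclic loess, median centring and the deposited scale. AT4G18180 lay at 2.18 to 2.85, GH9B12 at -1.95 to -1.29 and AT1G11730 at -1.40 to -0.73. The median of all probes was 0.38 on the deposited scale and -0.29 under median centring. The falls of GH9B12 and AT1G11730 were smallest in size on the deposited scale, and the rise of AT4G18180 was largest there.

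**Figure D5:**
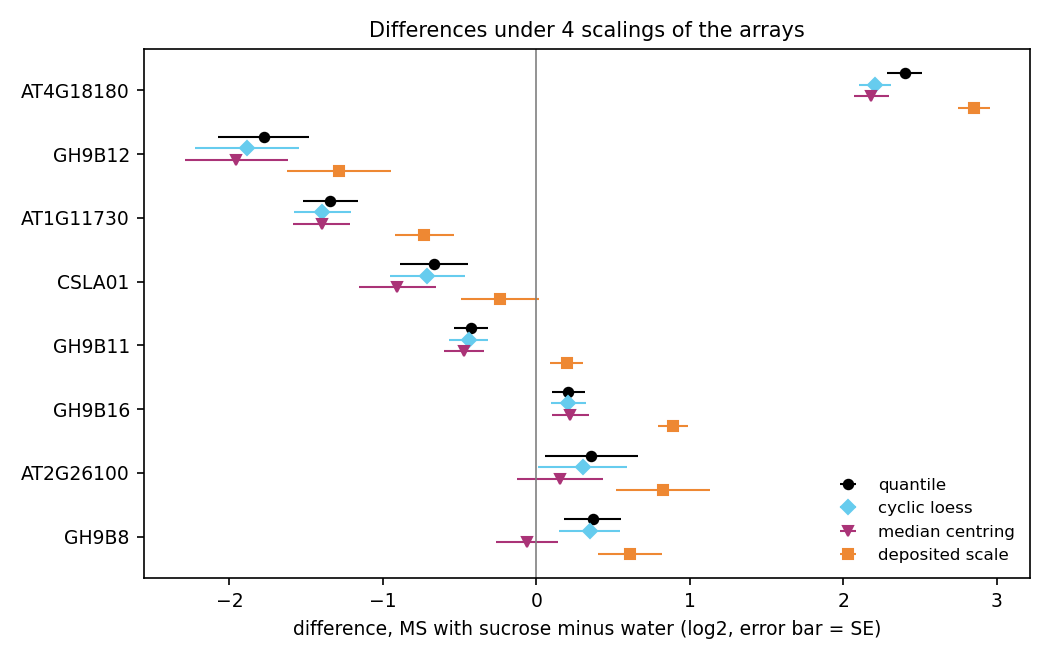
Difference, MS with sucrose minus water (log2 units), of the 3 genes and the 5 other cell wall and glycan genes under quantile normalization (black circles), cyclic loess (blue diamonds), median centring (purple triangles) and the deposited scale (orange squares); bars are the SE of limma. The 3 genes stay on one side of 0, while GH9B11 crosses it on the deposited scale (0.20) and GH9B8 under median centring (-0.06).

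The genes whose pattern was most like each of the 3 were found by Pearson's r of normalized log2 values over the 12 samples, among 669 other genes with a probe of their own that varied. The 12 points fall into 2 groups, so this r mostly follows the difference between them, and all genes share the arrays. For AT4G18180 the most alike were AT1G76450 (r = 0.99), AT4G22190 (0.99), AT1G13990 (0.99), AT4G37230 (0.98) and AT4G16410 (0.96), which differed by 0.77 to 2.25 on the normalized log2 scale. AT1G76450 encodes a protein with the PsbP domain of photosystem proteins, and went from 0.451 to 2.97 in mean intensity. For GH9B12 they were AT4G22370 (0.95), AT3G25410 (0.93), AT4G08940 (0.92), AT5G59400 (0.92) and AT3G14890 (0.88). Of these AT4G22370 and AT3G25410 hardly differed in deposited mean intensity, at 0.482 and 0.472, and at 0.323 and 0.316, and their normalized differences were -0.69 for each. For AT1G11730 they were AGL103 (0.97), a MADS-box gene, AT3G57440 (0.95), AT2G37880 (0.94), AT3G09080 (0.94) and AT2G31800 (0.93).

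With the group means taken out, the ranking changed. The deviations of AT4G18180 were most like those of AT3G25410 (r = 0.88), iqd32 (0.85) and AT4G13680 (0.85). Those of GH9B12, which lie almost wholly in the samples after MS with sucrose, were most like those of AT4G22370 (0.87), AT2G01400 (0.87) and AT5G13260 (0.86). Those of AT1G11730 were most like those of AT2G37880 (0.90), AT4G20760 (0.87) and AGL103 (0.80). AT4G22370 stood on both lists of GH9B12, and AT2G37880 and AGL103 on both lists of AT1G11730, while no gene stood on both lists of AT4G18180.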

How the data were processed

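The deposited file holds an intensity for each probe in each sample, taken here as linear. Any background correction or scaling by the authors is not stated there or in the labels. The 3 genes and all lists were chosen with earlier results of these data known. Intensities were used as log2(intensity + 0.0718), the offset being the 10th percentile of values above 0, and quantile normalized. All 3439 probes were fitted with limma 3.58.1 in R 4.3.3 (lmFit, eBayes with trend, two-sided, 6 samples a group, Benjamini-Hochberg adjustment, no filter on level). The fit was also run on simulated data with independent normal noise, without exact zeros, correlated samples or normalization. That run therefore cannot check the p-values under these features of the data. Probe names come from the platform annotation, updated to TAIR10.1 symbols: 692 probes had 1 gene, of which 690 matched the gene table, 870 had several genes and were not used for names, and 1877 are unnamed here. Genes named are the 3 genes, every list gene with its own probe, and those most alike by r (5 over the samples, 3 by deviations). Planned searches of promoter and protein sequence were not run, and sequences are not analysed here. Same-numbered samples of the groups correlated at 0.174 to 0.390 in their deviations from the group means across probes. Samples of different numbers correlated at -0.201 to 0.195, so the ranges overlap. The labels do not state a pairing, so reading the numbers as pairs comes from the data and is not settled. Adjacent numbers within a group correlated too, at 0.121 to 0.309, so errors and p-values may be understated. Figures were drawn with matplotlib 3.10.9. The number of arrays limits the precision.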

Additional observations from a re-analysis of the deposited data

How the results depend on the processing

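AT4G18180, GH9B12 and AT1G11730 kept their direction under the 9 alternatives and with each sample left out. AT4G18180 moved beyond its spread between replicates on the deposited scale (2.85) and under median centring (2.18). It also did so with the offset at the 25th percentile (2.07) and with zeros as missing (2.94). The setting with zeros as missing also drops the offset, and AT4G18180 had no sample listed at 0. AT1G11730 moved beyond its spread on the deposited scale, to -0.73. GH9B12 moved within -1.95 to -1.29, which was less than its own spread. That spread was wider and takes in the samples listed at 0. The pooled SD was 0.54 for GH9B12, 0.20 for AT4G18180 and 0.32 for AT1G11730. Leaving out 1 sample gave 2.34 to 2.49 for AT4G18180, -1.95 to -1.59 for GH9B12 and -1.46 to -1.22 for AT1G11730. With the number as a replicate block the estimates were the same, at 2.40 (SE 0.12), -1.78 (SE 0.28) and -1.34 (SE 0.19).

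Of all probes, 624 were called higher and 665 lower, against 1519 (44.2%) and 237 (6.89%) on the deposited scale, 487 and 1271 under median centring, 349 and 402 with adjacent numbers averaged, and 638 and 678 with the replicate block; leaving out 1 sample gave 544 to 619 and 589 to 673. Of the 5 other cell wall and glycan genes, the counts higher and lower were 0 and 2, against 3 and 0 on the deposited scale, 1 and 1 with zeros as missing, 0 and 1 without the 1002 dim probes, among them CSLA01, GH9B8 and AT2G26100, and 0 and 1 with the replicate block or with adjacent numbers averaged; leaving out 1 sample gave 0 to 1 and 1 to 2. Treating zeros as missing left 3066 probes to test, of which 643 passed as higher and 634 as lower. Leaving out the 1002 dim probes gave 581 higher and 629 lower among the rest. The counts of the 5 genes were not compared with those of all probes by a test. GH9B11 took the opposite sign on the deposited scale (0.20) and GH9B8 under median centring (-0.059). The cause was not tested. Signal near 0 limits GH9B8, CSLA01, AT2G26100, AT4G18180 in water and GH9B12 after MS with sucrose. Among the genes most alike it limits AT5G13260, and AT2G01400 and AT4G37230 in water.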
